A study of Mus musculus with 72 samples.

Results

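Dazl, Ddx4, Sycp1, Sycp3, Mael, Tex101, Asz1, Tdrd12, Stk31 and Slc25a31 are 10 germline genes that somatic cells keep off by DNA methylation of their promoters, followed here in mouse embryonic stem cells that have or lack the nucleoporin Nup133. They were taken as a fixed list of 10 of the 45407 genes in the count tables, each read from its transcript with the highest total count, and 9 of the 10 passed the filter on low counts that left 18279 genes for testing. Asz1 did not pass. DNA methylation itself was not measured in these samples, so every value below is a level of polyadenylated RNA.

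In early embryos and embryonic stem cells these genes are held down by several layers. A variant Polycomb complex, PRC1.6, which contains E2f6, Mga and Max, binds E2F motifs and E-boxes in their promoters, H3K9 methyltransferases act beside it, and Dnmt3a and Dnmt3b methylate the CpGs as cells leave the naive state, with Dnmt1 and Uhrf1 copying the mark at each division. In germ cells the promoters lose their methylation and the genes come on for RNA regulation, defence against transposons and meiosis. Naive embryonic stem cells transcribe some of them at low levels.

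Control cells were HM1, a male mouse embryonic stem cell line labelled Nup133+/+ and XY, in 2 biological replicates, and line 1A4, a blastocyst-derived line labelled Nup133+/+, Sox1gfp/+ and XY. Lines 14 and 19 are Nup133-/- lines that were derived from HM1 with CRISPR/Cas9 and are labelled XY, for line 19 as a likely karyotype. Line 319 is blastocyst-derived, homozygous for the merm allele of Nup133 (Nup133merm/merm), carries Sox1gfp/+ and is labelled XX with extra chromosomes 8 and 12. All were grown on DR4 feeder fibroblasts in serum and LIF and collected off the feeders (day 0), after culture in N2B27 without LIF (day 2), or after a further 24 h with 1 µM retinoic acid (day 3). Genotype and day give 6 groups of 3 samples, and lines 14, 19, 319 and 1A4 each gave 1 sample a day. Nothing in the labels says that the HM1 replicates came from separate derivations, so p-values measure the spread between these cultures.

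The 18 samples held 16.5 to 54.4 M gene counts. Nup133 lay between 179.5 and 323 CPM (counts per 1000000 counts in genes, scaled by TMM) in the 9 control samples and between 14.3 and 37.1 CPM in the 9 knockout samples. Line 19 at day 2 stood apart from the other day 2 samples, at 87.4 on the second principal component where they lay between 26.4 and 43.8, and member calls that change without it are given both ways. Against the XY labels, Y-linked genes summed to 3.09 to 10.4 CPM in lines 14 and 19, against 104 to 139 CPM in HM1. They summed to 0.181 to 0.673 CPM in line 319, against 149.9 to 327 CPM in line 1A4. Low Y-linked expression thus goes with knockout in every line, and the effects of the 2 cannot be told apart. The labels give line 319 an extra chromosome 8, yet its chromosome 8 genes had a median log2 of -0.36, -0.50 and -0.45 over HM1 at days 0, 2 and 3. Its chromosome 12 genes stood at 0.39, 0.52 and 0.51 and its X-linked genes at 0.75, 0.59 and 0.45. In line 19 the chromosome 8 genes had medians of -0.22, -0.26 and -0.39 over HM1 at days 0, 2 and 3. None of the 10 genes lies on chromosomes 8, 12, X or Y.

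The promoters are shown for 6 genes on which the results turn. Sycp1, Mael and Stk31 were higher in line 319. Tdrd12 and Sycp3 fell from day 2 to day 3, and Dazl and Tdrd12 fell from day 0 to day 2 in controls. The sequences are the bases upstream of the start sites on GRCm38.p6, taken from RefSeq, 5′ to 3′ on the strand of the gene, in lower case with every CpG in capitals. Each sequence stops at the most upstream GENCODE 5′ end, which leaves out the last 18 bases before the RefSeq start site in Sycp3, 16 in Dazl, 3 in Mael and 1 in Tdrd12, and none in Sycp1 and Stk31. The windows are chr3:102936101-102936350 for Sycp1, chr1:166238748-166238994 for Mael, chr7:35537746-35537994 for Tdrd12 and chr17:50293637-50293870 for Dazl, all on the minus strand, and chr6:49395289-49395538 for Stk31 and chr10:88459337-88459568 for Sycp3 on the plus strand.
Sycp1: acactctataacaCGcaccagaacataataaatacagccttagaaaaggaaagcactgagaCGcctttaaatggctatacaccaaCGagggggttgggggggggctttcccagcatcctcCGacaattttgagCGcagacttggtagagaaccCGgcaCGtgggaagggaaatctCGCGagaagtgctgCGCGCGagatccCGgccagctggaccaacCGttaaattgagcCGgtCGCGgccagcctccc
Mael: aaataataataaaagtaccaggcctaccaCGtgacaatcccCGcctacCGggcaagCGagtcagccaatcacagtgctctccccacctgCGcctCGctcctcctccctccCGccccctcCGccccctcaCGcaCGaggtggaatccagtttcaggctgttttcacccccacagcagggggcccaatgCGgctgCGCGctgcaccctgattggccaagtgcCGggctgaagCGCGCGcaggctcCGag
Stk31: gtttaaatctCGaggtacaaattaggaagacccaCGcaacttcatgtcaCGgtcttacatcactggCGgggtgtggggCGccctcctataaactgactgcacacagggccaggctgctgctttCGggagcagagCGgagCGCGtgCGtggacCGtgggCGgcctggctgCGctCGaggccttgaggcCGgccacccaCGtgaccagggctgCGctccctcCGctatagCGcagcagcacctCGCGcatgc
Tdrd12: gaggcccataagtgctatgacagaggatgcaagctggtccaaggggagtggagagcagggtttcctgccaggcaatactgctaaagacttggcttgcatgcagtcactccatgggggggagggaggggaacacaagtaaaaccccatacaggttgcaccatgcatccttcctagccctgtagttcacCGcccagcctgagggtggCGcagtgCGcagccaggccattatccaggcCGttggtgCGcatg
Sycp3: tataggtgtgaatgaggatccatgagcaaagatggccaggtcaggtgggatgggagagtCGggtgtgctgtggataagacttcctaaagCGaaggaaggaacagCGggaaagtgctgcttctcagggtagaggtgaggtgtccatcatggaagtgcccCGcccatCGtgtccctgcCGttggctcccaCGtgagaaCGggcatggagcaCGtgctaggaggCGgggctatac
Dazl: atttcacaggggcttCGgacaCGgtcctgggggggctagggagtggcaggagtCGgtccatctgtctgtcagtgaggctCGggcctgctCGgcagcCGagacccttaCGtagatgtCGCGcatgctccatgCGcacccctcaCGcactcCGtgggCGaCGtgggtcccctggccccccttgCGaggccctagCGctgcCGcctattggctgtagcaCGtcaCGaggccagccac

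All 10 genes had a RefSeq promoter. Over the 250 bases before the most upstream start site they held a median of 17.5 CpGs, against 6 in all 27025 promoters of the same length, and the ratio of observed to expected CpGs had a median of 0.781, against 0.379. Tdrd12 was the exception, with 5 CpGs and a ratio of 0.24 in its window, and its first CpG stands at position -63 from the start site. The counted Tdrd12 transcript starts at chr7:35537537, downstream of the window, which does not hold the bases just before that start. The counted transcripts of Sycp3 and Stk31 also start downstream of their windows, at chr10:88459664 and chr6:49395604. The other 9 held from 12 (Sycp3) to 31 (Ddx4) CpGs. Counts and positions refer to the full 250 bases, of which the printed sequences show 10 of the 12 CpGs of Sycp3 and 19 of the 20 of Dazl.

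The E-box CACGTG, which reads the same on both strands and itself contains a CpG, was found in 6 of the 10 windows. It stands at -94 in Sycp1, -223 in Mael, -55 in Stk31, -29 in Ddx4, -93 in Slc25a31, and at -64 and -43 in Sycp3, counted to its first base. In all promoters of this length 6.04% held it, and 9.59% of the 9334 promoters with an observed over expected CpG ratio of at least 0.6. The E2F motif TCCCGC, searched on both strands, was found in 3 of the 10, at -136 in Ddx4, -143 in Mael and -147 in Sycp3, against 16.9% of all promoters and 37.4% of the CpG-rich ones. The motifs do not overlap each other in these windows, and a match describes letters only.

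**Figure D1:**
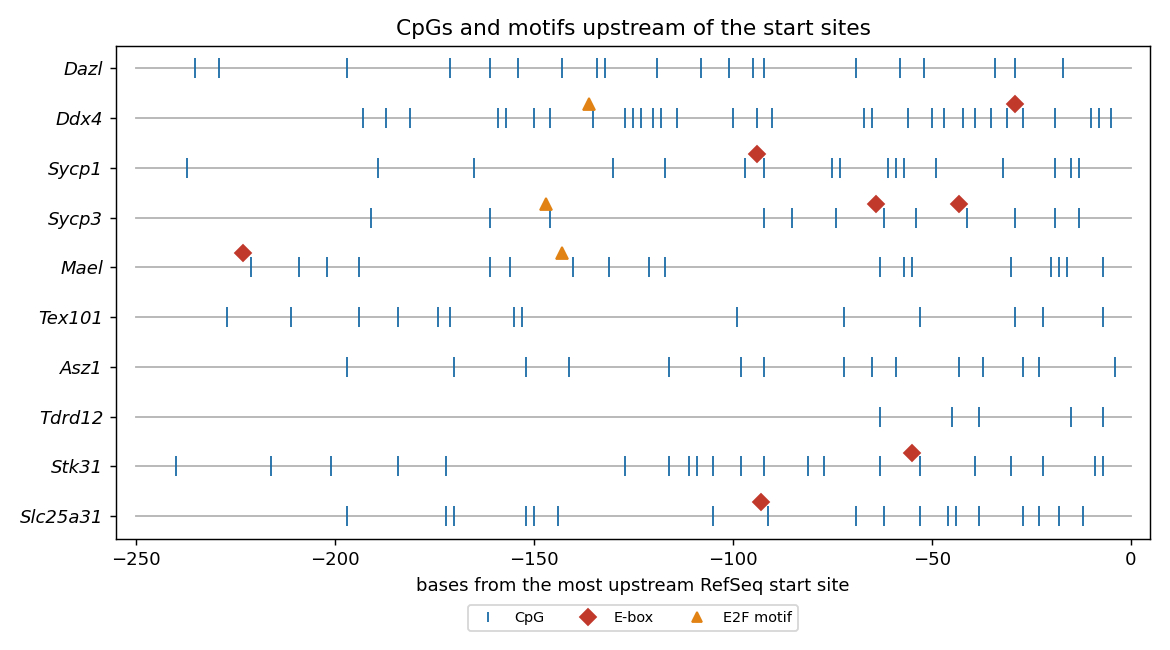
Position of every CpG (blue bars), E-box (red diamonds) and E2F motif (orange triangles) in the 250 bases before the most upstream RefSeq start site of each gene, with distance in bases on the x axis. The most upstream CpG stands between -240 and -191 in 9 genes and at -63 in Tdrd12.

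The 10 genes were not uniformly silent. Compared per length of transcript, as CPM per kb, Sycp3 had the highest median over the 18 samples, 42.9, and ranged from 9.77 to 141. Tdrd12 followed with 11.1, Ddx4 with 7.50 and Mael with 7.09. The medians of these 4 were above the median tested gene, which lay between 3.79 and 4.96 CPM per kb in the 18 samples. Sycp3 and Ddx4 were above it in every sample. Tdrd12 was below it in every day 3 sample, at 1.91 to 4.73 CPM per kb against 4.71 to 4.96. Mael was below it in line 1A4 at days 0 and 3 and in line 19 at day 3.

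Dazl and Stk31 came next, with medians of 2.65 and 2.15 CPM per kb. Slc25a31 (0.938), Sycp1 (0.751) and Tex101 (0.493) were lower, and Asz1 was lowest at 0.0405. The ranges of all neighbours in this order overlapped over the 18 samples, including those of Tex101 (0.126 to 1.43) and Asz1 (0 to 0.129). A mean of at least 1 CPM over the 18 samples was reached by 8 of the 10, all but Tex101 and Asz1.

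Asz1 anchors the piRNA machinery of germ cells to mitochondria. It had 55 counts in all over the 18 samples and from 0 to 11 counts in a sample, and at such levels no fold is given. Tex101, a surface glycoprotein of male germ cells, had 4 to 38 counts in a sample, or 0.134 to 1.51 CPM. For Sycp3, 660 of the 1169 bases of its transcript overlap exons of Chpt1 on the opposite strand, and the use of strand in counting is not given in the sources used here. Chpt1 lay between 5.20 and 25.3 CPM, was highest in line 19 at day 3, and was not called in either comparison of knockout lines with the control of their background. None of the other 9 transcripts overlaps exons of another gene.

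**Figure D2:**
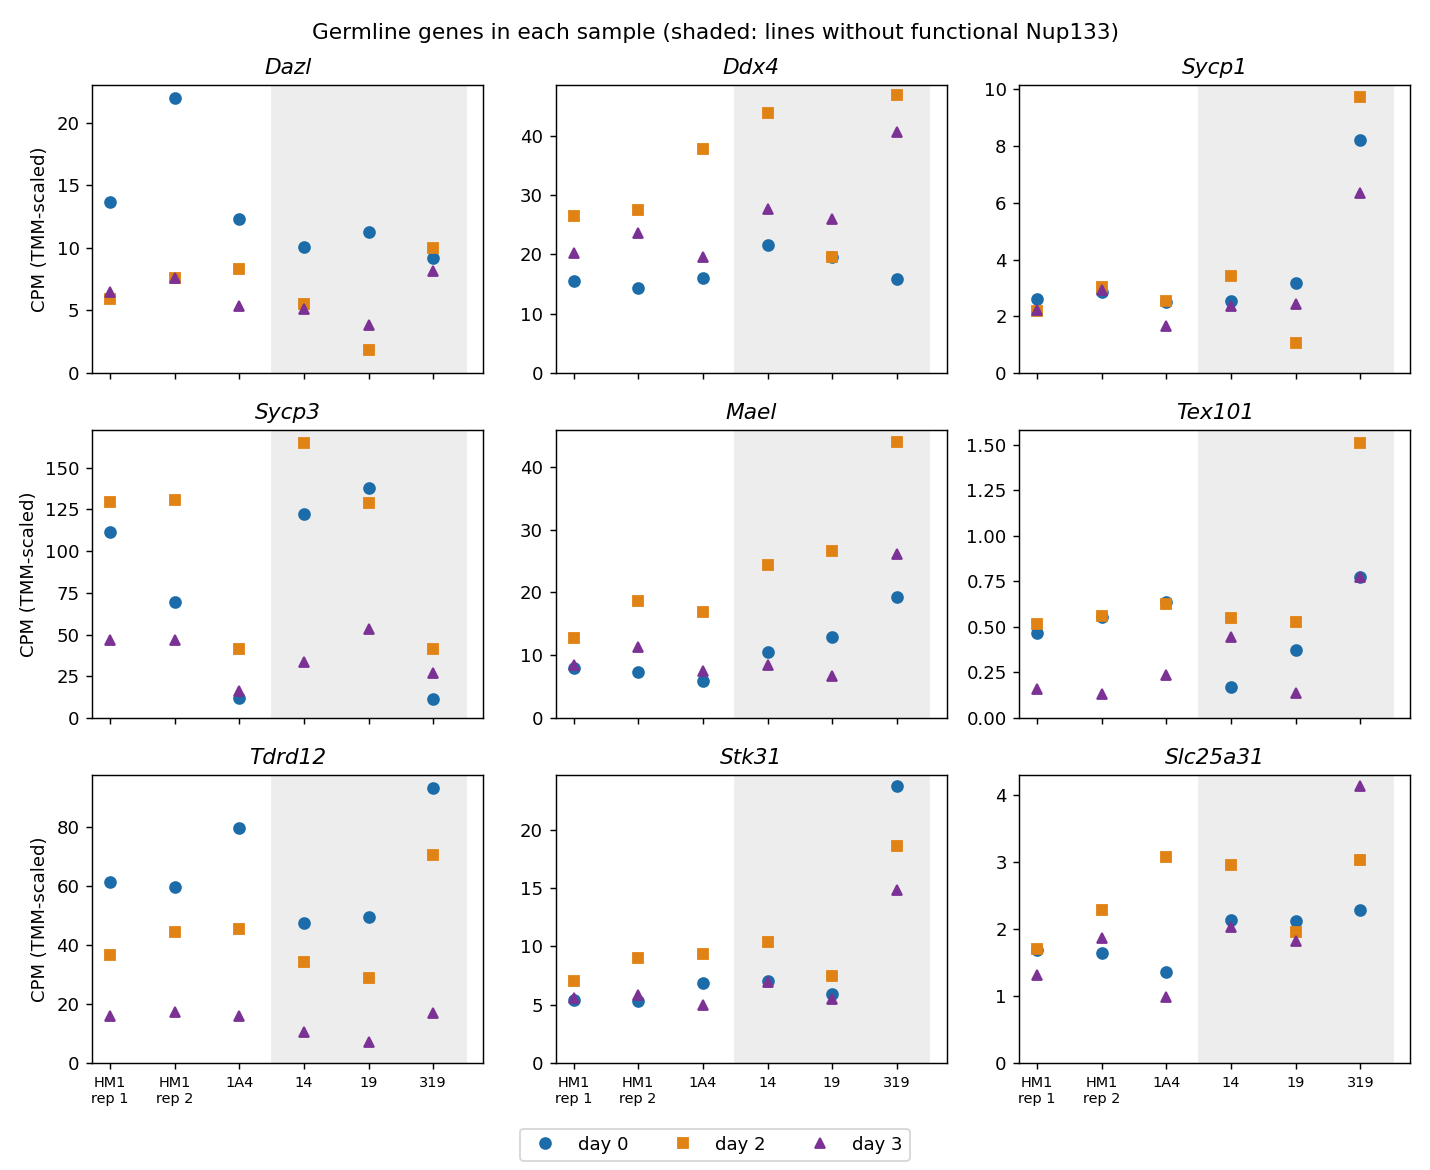
TMM-scaled CPM (y axis, linear, from 0) of the 9 tested genes in each of the 18 samples, by line (x axis) and day (colour and shape), with the knockout lines shaded. Sycp1, Stk31 and Mael are highest in line 319, and Sycp3 is low in lines 1A4 and 319 at day 0.

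From day 0 to day 2, as cells left the serum and LIF condition, the genes moved in both directions. In controls 2 of the 9 tested rose, Ddx4 and Mael, and 2 fell, Dazl and Tdrd12 (edgeR quasi-likelihood test, called at an adjusted p below 0.05). Of all genes, 19.7% rose and 15.5% fell. The median log2 fold change of the 9 was 0.55, against 0.01 over all tested genes. In knockout lines Ddx4 and Mael rose and no member fell, where 20.8% of all genes rose and 15.1% fell, with a median of 0.29 against 0.06.

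Ddx4, the RNA helicase known as Vasa that marks germ cells, stood in controls at 15.6, 14.4 and 16.0 CPM at day 0 and 26.4, 27.5 and 37.8 CPM at day 2 (HM1 replicate 1, HM1 replicate 2, line 1A4). In lines 14, 19 and 319 it stood at 21.6, 19.6 and 15.8 CPM at day 0 and 43.8, 19.5 and 47.0 CPM at day 2. The days did not overlap in controls, while line 19 showed no rise. Its log2 fold change was 0.98 ± 0.26 (SE) in controls with an adjusted p of 0.0081 and 0.93 ± 0.26 in knockout lines with an adjusted p of 0.011. Without the day 2 sample of line 19 the value in knockout lines was 1.25 (adjusted p = 1.2e-04), and in the HM1-derived samples alone it was 0.64 (adjusted p = 0.11).

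Mael, the Maelstrom protein of transposon silencing, stood in controls at 8.01, 7.26 and 5.86 CPM at day 0 and 12.7, 18.6 and 17.0 CPM at day 2. In lines 14, 19 and 319 it went from 10.6, 12.95 and 19.4 CPM to 24.5, 26.6 and 44.0 CPM. In all 6 series day 2 was above day 0, and the days did not overlap within a genotype. The log2 fold change was 1.16 ± 0.36 in controls (adjusted p = 0.022) and 1.14 ± 0.36 in knockout lines (adjusted p = 0.022).

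Dazl, an RNA-binding protein that controls translation in germ cells, moved the other way. In controls it stood at 13.7, 22.0 and 12.3 CPM at day 0 and at 5.89, 7.58 and 8.34 CPM at day 2, with no overlap and a log2 fold change of -1.17 ± 0.41 (adjusted p = 0.034). In lines 14 and 19 it went from 10.1 and 11.3 CPM to 5.49 and 1.81 CPM, but in line 319 from 9.22 to 9.98 CPM, and the change in knockout lines was -0.86 ± 0.41 (adjusted p = 0.12). Within the HM1-derived samples alone it was called in both genotypes, at -1.38 (adjusted p = 0.024) and -1.44 (adjusted p = 0.020).

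Tdrd12, a tudor domain protein of piRNA production, stood in controls at 61.4, 59.7 and 79.8 CPM at day 0 and 36.7, 44.4 and 45.5 CPM at day 2. Its log2 fold change was -0.64 ± 0.23 (adjusted p = 0.043) in controls and -0.53 ± 0.23 (adjusted p = 0.089) in knockout lines. With the lines as a replicate block, which pairs the days of a series, Tdrd12 passed in knockout lines too, at -0.56 with an adjusted p of 0.015.

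The calls of this step rested on few control samples. With either HM1 replicate left out on all days, none of the 9 was called in controls. There were 2 calls without line 1A4, 2 without line 14, 4 without line 19 and 6 without line 319. Over all genes the calls in controls went from 6438 to 2831 and 3164 without HM1 replicates 1 and 2, and to 4507 without line 1A4. They went to 6011, 8905 and 7819 without lines 14, 19 and 319. The adjusted p of Ddx4 was 0.057, 0.069 and 0.086 without HM1 replicate 1, HM1 replicate 2 and line 1A4, and that of Mael 0.067 and 0.14 without either HM1 replicate. In knockout lines none was called without line 14, where Ddx4 had an adjusted p of 0.081 and Mael of 0.10. Ddx4 had 0.089 without line 319. Over all genes the calls in knockout lines went from 6561 to 3813 without line 14 and to 7719 without line 319. Dazl in controls had 0.19, 0.24 and 0.069 without HM1 replicate 1, HM1 replicate 2 and line 14. Over all alternatives tried, its call was lost in 4 and kept in 10. Tdrd12 in controls had 0.25, 0.094, 0.056 and 0.073 without HM1 replicate 1, HM1 replicate 2, line 1A4 and line 14. Over all alternatives its call was lost in 8 and kept in 6.

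From day 2 to day 3, the step with retinoic acid, all 9 tested genes had a log2 fold change below 0 in both genotypes. No sample was kept to day 3 without retinoic acid, so the drug and the further 24 h of culture cannot be told apart. In controls 3 fell, Tdrd12, Tex101 and Sycp3, where 8.92% of all genes fell and 12.5% rose. Without line 19 at day 2 these shares were 15.5% and 16.9%, and 4 members fell in controls. In knockout lines 3 fell, Tdrd12, Mael and Sycp3, where 16% of all genes fell and 17.7% rose. No member rose. The median of the 9 was -0.72 in controls and -0.46 in knockout lines, against 0.00 over all genes in both.

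Tdrd12 fell to 15.9, 17.3 and 15.9 CPM in the controls and to 10.5, 6.97 and 16.8 CPM in lines 14, 19 and 319. Every day 3 sample lay below every day 2 sample of either genotype. The log2 fold change was -1.35 ± 0.24 (adjusted p = 9.2e-04) in controls and -1.93 ± 0.24 (adjusted p = 4.2e-05) in knockout lines. Both calls held in all 14 alternatives, including each sample series left out.

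Sycp3 builds the axial elements of meiotic chromosomes. In the HM1 replicates it stood at 112 and 69.8 CPM at day 0, 129.7 and 131 CPM at day 2 and 46.8 CPM in both at day 3. Line 1A4 held far less, 11.8, 41.1 and 16.4 CPM. Lines 14 and 19 stood at 122 and 138 CPM at day 0, 165 and 129 CPM at day 2 and 33.7 and 53.4 CPM at day 3.

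In line 319 Sycp3 followed line 1A4, with 11.4, 41.1 and 26.8 CPM on the 3 days. Its fall from day 2 to day 3 was -1.42 ± 0.42 in controls (adjusted p = 0.025) and -1.26 ± 0.42 in knockout lines (adjusted p = 0.032). Both calls were lost without the background term (adjusted p of 0.24 and 0.16) and without the filter on low counts (0.086 and 0.10). The control call was also lost without any 1 of HM1 replicate 1, HM1 replicate 2 and line 1A4 (adjusted p of 0.14, 0.19 and 0.087). The knockout call was also lost without line 14 (0.22) or line 19 (0.095), without either HM1 replicate (0.051 and 0.070), and with the replicate block (0.055).

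Tex101 fell in controls from 0.517, 0.558 and 0.626 CPM at day 2 to 0.161, 0.134 and 0.234 CPM at day 3, by 1.73 ± 0.47 on the log2 scale (adjusted p = 0.015). Without HM1 replicate 1 or 2 its adjusted p was 0.13 and 0.16. Over all alternatives its call was lost in 3 and kept in 11, and it had 4 to 9 counts in the control samples at day 3. In lines 14, 19 and 319 it stood at 0.551, 0.528 and 1.51 CPM at day 2 and 0.446, 0.137 and 0.776 CPM at day 3.

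Mael returned in controls to 8.45, 11.3 and 7.52 CPM, with a log2 fold change of -0.80 (adjusted p = 0.13). In lines 14, 19 and 319 it stood at 8.39, 6.76 and 26.2 CPM, and its fall of -1.28 ± 0.36 was called (adjusted p = 0.014), with an adjusted p of 0.090 and 0.079 without line 14 and line 19. With the replicate block Mael and Stk31 also passed in controls, at -0.84 (adjusted p = 0.031) and -0.63 (adjusted p = 0.048), which made 5 called. Leaving out HM1 replicate 1 or 2 left 1 call in controls, and leaving out line 14 or 19 left 1 in knockout lines. Over all genes the calls went from 3918 to 1258 and 1215 in controls, and from 6145 to 4386 and 5245 in knockout lines. Without the day 2 sample of line 19, Ddx4 was also called in both genotypes, at -0.52 (adjusted p = 0.028) and -0.53 (adjusted p = 0.041).

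**Figure D3:**
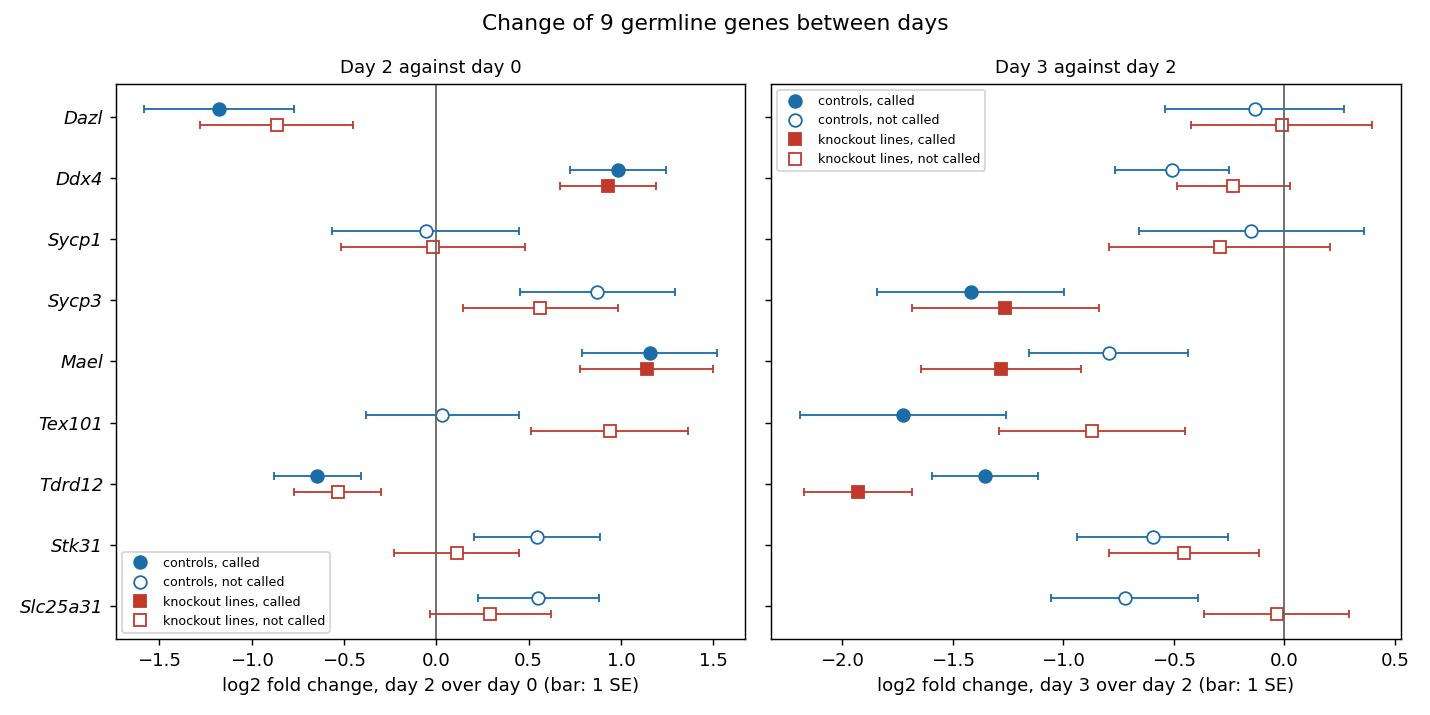
Log2 fold changes (x axis, with 1 SE) of the 9 tested genes from day 0 to day 2 (left) and from day 2 to day 3 (right) in controls (blue circles) and knockout lines (red squares), filled where called. All points on the right lie below 0, several of them within 1 SE of it. On the left Ddx4 and Mael lie above 0 and Dazl and Tdrd12 below it.

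Stra8 and Rec8, meiotic genes that respond to retinoic acid, rose over the same step. Stra8, the gatekeeper of meiotic entry, stood between 0.0808 and 0.951 CPM at day 2 in the 6 series and between 99.3 and 409.6 CPM at day 3. Rec8, the meiotic cohesin subunit, lay between 10.2 and 26.3 CPM at day 2 and between 128 and 196 CPM at day 3. Both were called in both genotypes. In the same samples pluripotency markers (Pou5f1, Nanog, Zfp42, Esrrb, Klf4 and Tbx3) summed to 3278 to 3528 CPM at day 0, 1006 to 1094 CPM at day 2 and 308 to 366 CPM at day 3 in controls. In knockout lines they summed to 3734 to 4821 CPM, 910 to 1191 CPM and 106 to 415 CPM, with no overlap with controls at day 0. None of the 6 markers was called between knockout and control at any day, where at most 2.74% of all genes were called in either direction. Cultures are mixtures, and fewer cells with a transcript and less of it per cell cannot be told apart.

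Of 21 other germline genes, 6 rose and 1 fell in controls from day 0 to day 2, and 6 rose and 1 fell in knockout lines. The same 6 rose in both, Sycp2, Tdrd1, Meioc, Brdt, Dmc1 and Boll. From day 2 to day 3, 1 rose and 4 fell in controls, and 3 fell in knockout lines. Of all genes, 19.7% rose and 15.5% fell in controls in the first step, and 12.5% and 8.92% in the second. In knockout lines the shares were 20.8% and 15.1%, then 17.7% and 16%. The medians over the 21 were 0.18 and 0.42 for the first step and -0.50 and -0.53 for the second.

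The central comparison of the study sets knockout against control at each day, with a term for genetic background. None of the 9 tested genes was called at day 0, day 2 or day 3 by edgeR, and none by DESeq2. At an unadjusted p below 0.05 there were 2, 1 and 4. Of all genes, 0.0656% were higher and 0.788% lower at day 0, 0.635% and 0.963% at day 2, and 2.74% and 2.44% at day 3. Without line 19 at day 2 the shares were 0.285% and 1.72% at day 0 and 8.08% and 7.80% at day 3. The medians of the 9 were 0.42, 0.27 and 0.49, against 0.01, 0.02 and 0.02 over all genes.

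At day 0 the lowest adjusted p-values were those of Mael and Stk31. Mael was higher in all 3 knockout lines than in all 3 controls, with a mean of 14.3 ± 4.53 CPM (SD, n = 3) against 7.04 ± 1.09 CPM (n = 3), and its log2 difference was 0.94 ± 0.36 (edgeR adjusted p = 0.32). Stk31, a tudor domain protein of the testis, stood at 5.38, 5.33 and 6.86 CPM in controls and 6.99, 5.88 and 23.8 CPM in lines 14, 19 and 319, a difference of 0.86 ± 0.34 (edgeR adjusted p = 0.34). The high value is that of line 319, and without that line the difference of Stk31 was 0.19.

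At day 2 Mael again had the lowest adjusted p, with a difference of 0.92 ± 0.36 (edgeR adjusted p = 0.17), and the groups did not overlap. At day 3 the lowest were Tex101 at 1.32 ± 0.47 (0.11), Slc25a31 at 0.88 ± 0.33 (0.13) and Tdrd12 at -0.60 ± 0.24 (0.15). Slc25a31, an ADP/ATP carrier of germ cell mitochondria, had 1.32, 1.87 and 0.989 CPM in controls and 2.03, 1.82 and 4.14 CPM in lines 14, 19 and 319, and the groups overlapped.

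One call appeared under some choices at day 3. Tdrd12 was lower in lines 14 and 19 than in HM1 in the HM1-derived samples alone, by -0.92 with an adjusted p of 0.034, and it was also called without line 1A4 (-0.94, adjusted p = 0.031) or without line 319 (-0.83, adjusted p = 0.020). Without the day 2 sample of line 19, Ddx4 was called at 0.55 (adjusted p = 0.040) in its place. At day 3 Ddx4 stood at 20.3, 23.6 and 19.6 CPM in controls and 27.7, 26.02 and 40.7 CPM in lines 14, 19 and 319, with no overlap.

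The size of the genotype difference did not change detectably between days. For day 2 against day 0 and for day 3 against day 0, no member was called by edgeR or DESeq2, and 0 and 1 had an unadjusted p below 0.05. Of all genes 0.0219% and 0% were called higher and lower in the first comparison and 0.394% and 0.0328% in the second, or 1.08% and 0.338% without line 19 at day 2. The member was Tex101, with a change of 1.76 ± 0.64 and an adjusted p of 0.28.

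A fit by line with day as a term compares each knockout line with the control of its background over the 3 days, and its p-values rest on cultures of 1 line on 3 days, not on independent lines. In line 319 against line 1A4, 3 of the 9 tested genes were higher, Stk31, Mael and Sycp1, none was lower, and all 9 had a log2 difference above 0. Of all genes 5.48% were higher and 3.82% lower, or 9.95% and 9.36% without line 19 at day 2. The median of the 9 was 0.88, against 0.01 over all genes.

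Sycp1, the transverse filament of the synaptonemal complex, stood at 8.20, 9.72 and 6.34 CPM in line 319 on days 0, 2 and 3. Line 1A4 held 2.51, 2.52 and 1.64 CPM. The 12 samples of HM1 and its derivatives lay between 1.06 and 3.42 CPM, so every sample of line 319 was above all 15 others. The ratio to line 1A4 was 3.26, 3.85 and 3.87 on the 3 days, and the log2 difference over the days was 1.86 ± 0.31 (edgeR adjusted p = 0.0024). Leaving out day 3 gave 1.83 with an adjusted p of 0.053.

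Stk31 stood at 23.8, 18.6 and 14.8 CPM in line 319 and at 6.86, 9.39 and 4.97 CPM in line 1A4. All 15 samples of the other lines lay between 4.97 and 10.4 CPM, below every sample of line 319. The ratio to line 1A4 was 3.47, 1.98 and 2.98, and the log2 difference 1.48 ± 0.20 (edgeR adjusted p = 7.2e-04).

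Mael stood at 19.4, 44.0 and 26.2 CPM in line 319 and at 5.86, 17.0 and 7.52 CPM in line 1A4, with ratios of 3.30, 2.59 and 3.48. Its log2 difference was 1.63 ± 0.27 (edgeR adjusted p = 0.0021). Stk31 and Mael were called in all 12 alternatives, with each day and each HM1-derived series left out. Lines 319 and 1A4 stayed in all of them, and an HM1-derived series bears on this difference only through terms shared by all lines.

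The other members in line 319 kept closer to line 1A4. Tex101 was at 1.08 ± 0.45 (adjusted p = 0.15) and Slc25a31 at 0.88 ± 0.33 (adjusted p = 0.11; DESeq2 adjusted p = 0.0498). Slc25a31 was 1.68 and 4.19 times the level of line 1A4 at days 0 and 3 but 0.986 times at day 2. Ddx4 was 0.987, 1.24 and 2.08 times the level of line 1A4 on the 3 days, Dazl 0.748, 1.20 and 1.51 times, and Tdrd12 1.17, 1.55 and 1.06 times.

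In lines 14 and 19 against HM1, 1 of the 9 was lower, Tdrd12, and none was higher, where 4.88% of all genes were lower and 2.78% higher, or 8.67% and 6.59% without line 19 at day 2. The median of the 9 was 0.17, against 0.00 over all genes. Tdrd12 was below both HM1 replicates in both lines on each day, with ratios to the HM1 mean of 0.783, 0.840 and 0.637 in line 14 and 0.817, 0.708 and 0.421 in line 19. Its log2 difference was -0.54 ± 0.13 (edgeR adjusted p = 0.019). The call was lost without HM1 replicate 1 (adjusted p = 0.099), HM1 replicate 2 (0.25), line 14 (0.058) or line 19 (0.060), without day 2 (0.051) and without day 3 (0.20).

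Dazl was also below the HM1 mean in both lines on each day, with ratios of 0.563, 0.816 and 0.723 in line 14 and 0.631, 0.269 and 0.544 in line 19, and a log2 difference of -0.75 ± 0.25 (edgeR adjusted p = 0.076; DESeq2 adjusted p = 0.026). Without the day 2 sample of line 19, Ddx4 was higher in lines 14 and 19 (0.45, adjusted p = 0.031) beside the lower Tdrd12 (-0.55, adjusted p = 0.012). With it Ddx4 stood at 0.32 (adjusted p = 0.25), and without line 19 on all days at 0.52 (adjusted p = 0.049).

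**Figure D4:**
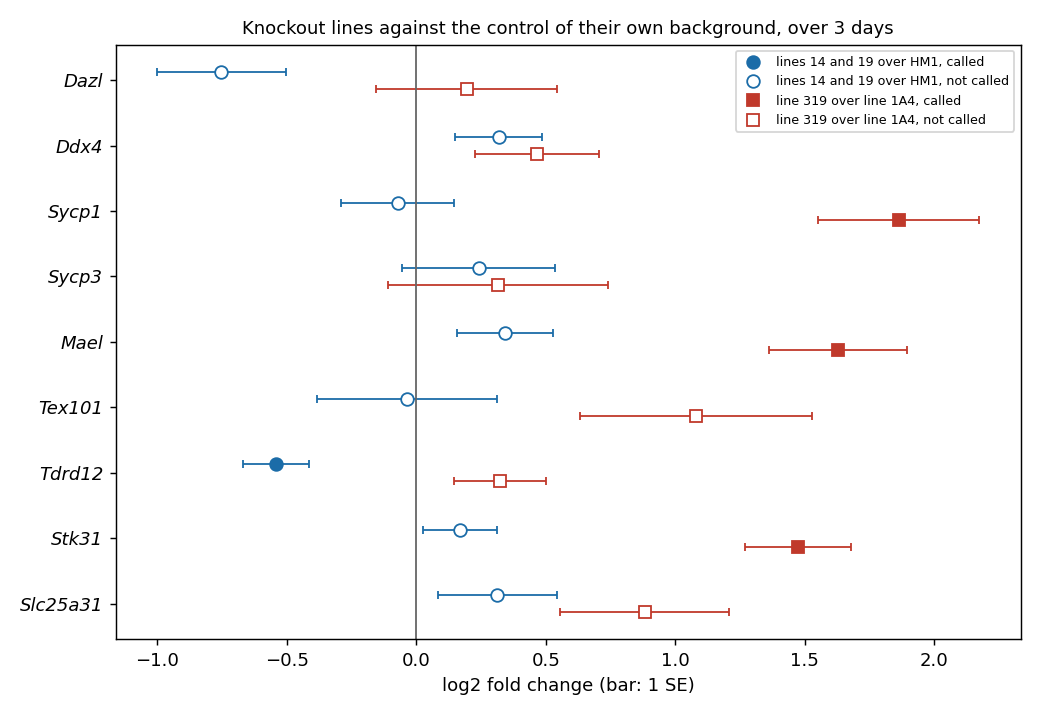
Log2 difference over 3 days (x axis, with 1 SE) of lines 14 and 19 over HM1 (blue circles) and of line 319 over line 1A4 (red squares) for the 9 tested genes, filled where called. Sycp1, Mael and Stk31 stand at 1.86, 1.63 and 1.48 in line 319, and Tdrd12 at -0.54 in lines 14 and 19.

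The difference between the backgrounds was tested directly. As a signed value, the knockout difference was higher in the blastocyst-derived pair than in the HM1-derived lines for 4 of the 9, Stk31, Sycp1, Mael and Tdrd12, and lower for none, where 2.45% and 0.667% of all genes were called, or 5.01% and 3.26% without line 19 at day 2. For Tdrd12 the pair stood at 0.32 (not called) and the HM1-derived lines at -0.54, so the signs were opposite. The sizes on the log2 scale were 1.31 ± 0.25 for Stk31 (adjusted p = 0.0094), 1.93 ± 0.38 for Sycp1 (0.011), 1.29 ± 0.32 for Mael (0.042) and 0.87 ± 0.22 for Tdrd12 (0.042). All 9 stood above 0, with a median of 0.95 against 0.00 over all genes. No member was called without HM1 replicate 2, without day 0 or without day 3, 1 without HM1 replicate 1 or day 2, and 2 without line 14. Over all genes the calls went from 570 to 75, 146 and 65 without HM1 replicate 2, day 0 and day 3. They went to 185, 101 and 217 without HM1 replicate 1, day 2 and line 14.

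A further comparison, added after the low Sycp3 of lines 1A4 and 319 had been seen, set the blastocyst-derived against the HM1-derived lines, control and knockout alike. Since Sycp3 prompted it, its log2 difference of -1.96 ± 0.29 is a description, with no test. At day 0 the lines 1A4 and 319, at 11.8 and 11.4 CPM, did not overlap the HM1-derived samples at 69.8 to 138 CPM. Stk31 (0.76), Sycp1 (0.72) and Tdrd12 (0.69) were higher, and of all genes 5.2% were higher and 2.33% lower, or 7.91% and 5.80% without line 19 at day 2. Line 319 enters this mean. In line 1A4 Stk31 lay between 4.97 and 9.39 CPM over the days, where the HM1 replicates lay between 5.33 and 8.97 CPM, and Sycp1 between 1.64 and 2.52 CPM, where they lay between 2.20 and 3.05 CPM. The call of Sycp1 was lost without HM1 replicate 1 (adjusted p = 0.14), HM1 replicate 2 (0.071) or line 14 (0.059), and without day 0 (0.15), day 2 (0.082) or day 3 (0.081). The calls of Stk31 and Tdrd12 held in all 12 alternatives. None of these left out line 319 or line 1A4, so they could not show whether a call rests on line 319. The derivation of the lines, their strain and the Sox1gfp allele cannot be told apart here.

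Other germline genes were also higher in line 319. Of all genes 5.48% were higher and 3.82% lower in line 319, and 2.78% and 4.88% in lines 14 and 19. Of the 21, 10 were higher and 1 lower than in line 1A4, with a median log2 difference of 0.98. In lines 14 and 19, 1 of the 21 was higher and 2 were lower, with a median of 0.02. The 4 with the smallest adjusted p were Fkbp6 (2.88), Syce1 (1.71), Tdrd9 (2.35) and Tex19.1 (1.81). Tdrd9 lies on chromosome 12. Fkbp6, a cofactor of meiosis and piRNA production, stood at 14.4, 10.5 and 4.11 CPM in line 319 and 1.48, 1.62 and 0.677 CPM in line 1A4. The direct test of the difference between backgrounds called 7 of the 21, all larger in line 319. It called 2.45% of all genes higher and 0.667% lower. Tex14, a bridge protein of germ cells, was the 1 lower gene in line 319 (-0.97) and was lower in lines 14 and 19 too (-1.28, adjusted p = 0.0018). Of the meiotic genes Stra8 and Rec8, Stra8 was called higher in line 319 and in the direct test, and Rec8 in neither. In lines 14 and 19 neither gene was called.

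**Figure D5:**
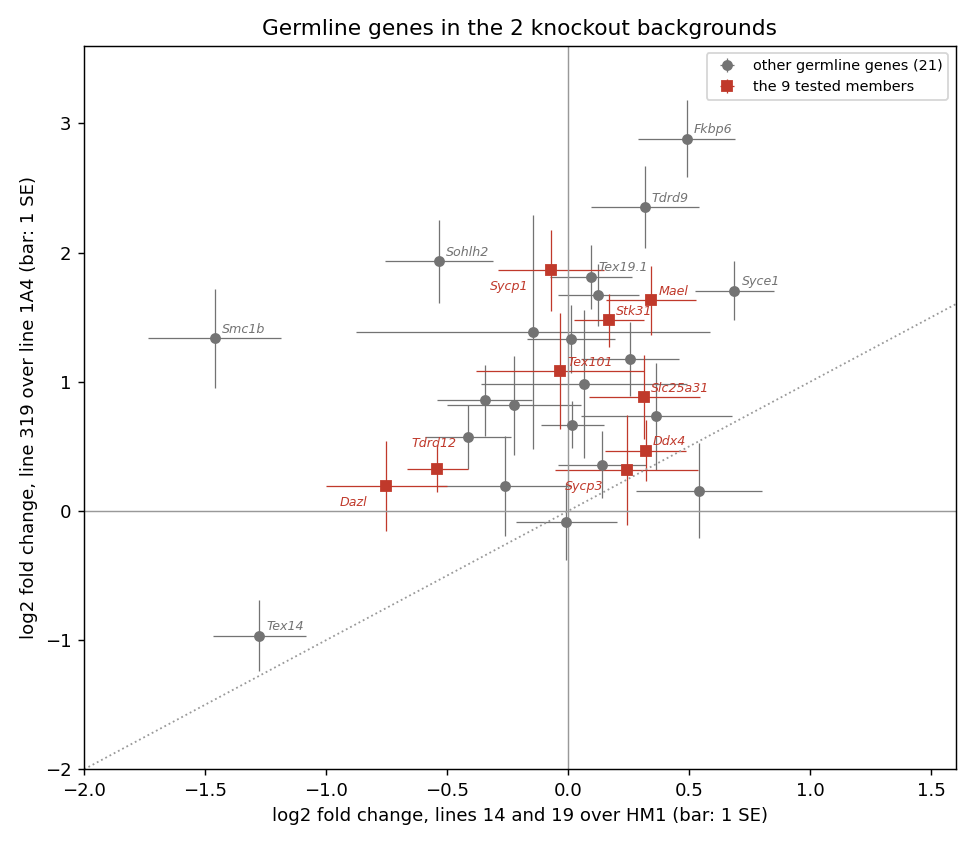
Log2 difference of line 319 over line 1A4 (y axis) against that of lines 14 and 19 over HM1 (x axis), with 1 SE, for the 9 tested members (red squares) and 21 other germline genes (grey circles); the dotted line marks equal differences. Most points lie above the dotted line, Fkbp6 and Tdrd9 are highest on the y axis, and Tex14 is below 0 on both axes.

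Of the 5 methylation genes, 2 rose and 1 fell from day 0 to day 2 and 3 fell from day 2 to day 3, in controls and in knockout lines alike. Of 11 genes of PRC1.6 and H3K9 methylation, 1 rose and 3 fell in the first step and 3 fell in the second, in both genotypes. Of all genes, 19.7% rose and 15.5% fell in controls in the first step, and 12.5% and 8.92% in the second. In knockout lines the shares were 20.8% and 15.1%, then 17.7% and 16%. Dnmt1 and Uhrf1 were not called in either step. Dnmt3b, a de novo methyltransferase, lay in controls between 255 and 451 CPM at day 0, between 2820 and 3160 CPM at day 2 and between 131 and 218 CPM at day 3. Dnmt3a followed, and both rose and then fell in both genotypes. None of the 5 was called between knockout and control at any day. Dnmt1 lay between 372 and 471 CPM in 17 samples and at 211 CPM in line 19 at day 2.

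Dnmt3l, the cofactor of both de novo enzymes, was the methylation gene called in line 319. It stood at 672, 358 and 54.4 CPM in line 319 and at 324, 92.2 and 23.8 CPM in line 1A4, a log2 difference of 1.42 (adjusted p = 0.0053). In lines 14 and 19 the difference from HM1 was 0.57 (adjusted p = 0.082), and the direct test between the backgrounds gave 0.85 (adjusted p = 0.19). None of the 4 demethylation genes, Tet1, Tet2, Tet3 and Tdg, was called in either line comparison.

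Of the 11 genes of PRC1.6 and H3K9 methylation, 2 were higher and 1 lower in line 319 than in line 1A4. Of all genes 5.48% were higher and 3.82% lower. Max (0.69) and E2f6 (0.47) lie on chromosome 12, whose genes had medians of 0.45 to 0.50 over line 1A4, and Tfdp1 (-0.87) lies on chromosome 8, with medians of -0.58 to -0.42. E2f6 stood at 30.6, 62.4 and 57.8 CPM in line 319 and 26.4, 40.7 and 39.6 CPM in line 1A4. In lines 14 and 19 none of the 11 was called. Between knockout and control 1 was called, Max, which was higher at day 3 (0.54, adjusted p = 0.048). Of 5 genes of primordial germ cell specification, 2 were lower in lines 14 and 19, Dppa3 and Tfap2c, and 1 in line 319, Dppa3. None was higher. Of all genes 4.88% were lower in lines 14 and 19 and 3.82% in line 319. Dppa3, a germ cell and naive state factor that protects methylation in the zygote, stood at -1.49 in lines 14 and 19 (adjusted p = 0.0055). In line 319 it stood at -1.51 (adjusted p = 0.026). The direct test between backgrounds called Prdm14 higher, where it called 2.45% of all genes higher. Xist, which silences an X chromosome, stood at 28.9, 1014 and 503 CPM in line 319 on days 0, 2 and 3 and between 1.503 and 18.5 CPM in all other samples.

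Line 319 is 1 line that differs from line 1A4 in Nup133, in its X chromosomes, in Y-linked genes and in the levels of chromosomes 8 and 12. What belongs to each cannot be told apart in its germline gene levels. Of the 6 pluripotency markers, 2 were higher in line 319 than in line 1A4, Klf4 (1.40, adjusted p = 0.018) and Tbx3 (1.00, adjusted p = 0.033). None was lower, where 5.48% of all genes were higher and 3.82% lower. In lines 14 and 19, 1 was lower, Nanog, and none higher, where 4.88% of all genes were lower and 2.78% higher. The 6 markers summed to 4821 CPM in line 319 at day 0, the highest of all samples. The part of pluripotency state in the germline gene levels was not tested. Feeder fibroblast markers (8 genes) summed to 65.5 to 191 CPM over the 18 samples, with overlapping ranges between genotypes at day 0, day 2 and day 3, and Lum was at most 0.234 CPM. Of the 7 tested, Postn was lower in knockout at day 2 (-5.21, adjusted p = 0.0040) and day 3 (-3.38, adjusted p = 0.0054). No other was called there, where 0.963% and 2.44% of all genes were lower. Postn was also lower in lines 14 and 19 (-3.09, adjusted p = 0.0043) and in line 319 (-3.33, adjusted p = 0.016). It had 0 to 17 counts in a knockout sample. Col1a1 was lower in lines 14 and 19. The part of feeder RNA in the member levels was not tested.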

How the data were processed

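The deposited files hold raw counts per Ensembl transcript, 1 table for each of 72 libraries, as made by the authors. Per the labels' protocols, polyadenylated RNA was made into strand-specific TruSeq libraries. The submitters' processing notes name bcl2fastq 2.17.1.14, STAR 2.4.0k, SAMtools, HTSeq and mm10. Their settings, whether strand was used in counting and which annotation release it used are not given in the sources used here.

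The 4 technical libraries of each of 18 samples were added up. Their chi-square per degree of freedom lay between 1.01 and 1.03 over genes with at least 40 counts. Transcripts were matched to GENCODE M21 on GRCm38 (108309 of 110379), and each gene was read from its transcript with the highest total, since a read is counted for every transcript it overlaps. Identifiers without a match held 1.43% to 2.46% of counts and were left out.

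The tests used edgeR 4.0.16 under R 4.3.3 with limma 3.58.1, TMM scaling, filterByExpr and robust quasi-likelihood fits, with Benjamini-Hochberg adjustment over 18279 genes and a call at an adjusted p below 0.05. One fit held 6 groups and genetic background, another the 5 lines and day, each with 11 residual degrees of freedom. The scripts were tested on simulated data. DESeq2 1.42.0, RLE scaling, no filter, summed transcripts, left-out samples or days and a replicate block were tried as alternatives. The days of a series come from the same cells in culture, so the numbers pair the samples, and deviations from the group means correlated above 0.1 in 15 of 18 pairs of days (-0.129 to 0.476).

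The comparison of blastocyst-derived with HM1-derived lines and the fit without line 19 at day 2 were added after seeing the data. All 10 members are named, with up to 4 called genes of each other list and a fixed set of regulators. The members and lists were chosen with earlier results of these data known, so no p is adjusted over a list.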

Additional observations from a re-analysis of the deposited data

Results flagged for a closer look

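For 4 genes the knockout difference of line 319 over line 1A4 was higher, as a signed value, than that of lines 14 and 19 over HM1 when the difference itself was tested. It was 1.31 on the log2 scale for Stk31, 1.93 for Sycp1, 1.29 for Mael and 0.87 for Tdrd12. Line 319 was above line 1A4 on all 3 days in each of these genes. Tdrd12 was lower than HM1 in lines 14 and 19 on all 3 days. The comparison rests on 1 line in the blastocyst-derived background, and the cause of the difference between backgrounds was not tested.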

How the results depend on the processing

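Single members were followed under the alternatives only where they were called or lay at least 2 SE from 0. Of these values 502 kept their direction and side of the threshold, 74 lost a call, 18 gained one and none reversed. Smaller differences, which reverse more easily, were not counted. Counts of members called that moved by over 1.5 times are these. Knockout against control at day 3 went from 0 to 1 in the HM1-derived samples alone and without line 19 at day 2, and to between 0 and 1 with a replicate left out. Day 2 against day 0 in controls went from 4 to 2 without the filter on low counts, and ranged from 0 to 6 with a replicate left out. Day 3 against day 2 in controls went from 3 to 1 without the background term, to 5 with the replicate block, and ranged from 1 to 5. In knockout lines, day 2 against day 0 ranged from 0 to 3 and day 3 against day 2 from 1 to 3. Lines 14 and 19 against HM1 went from 1 to 2 with DESeq2 and without line 19 at day 2, to 0 without day 2 or day 3, and ranged from 0 to 1. The difference between backgrounds went from 4 to 2 with summed transcripts, to 0, 1 and 0 without day 0, 2 and 3, and ranged from 0 to 4. The cause of each move was not tested. The replicate block changed the calls of members named in the report and, over all genes, moved no count of a step between days by over 1.5 times. Over all genes, DESeq2 called 557, 1399 and 2065 genes between knockout and control at days 0, 2 and 3, where edgeR called 156, 292 and 947. Without line 19 at day 2 the numbers were 380, 375 and 3007. By line, 3656 genes were called between lines 319 and 1A4 without that sample against 1699 with it, and 2888 against 1400 in lines 14 and 19. Genotype differences that changed from day 0 numbered 4 and 78 with edgeR and 76 and 447 with DESeq2 at days 2 and 3. The difference between backgrounds was called in 570 genes with edgeR, 1365 with DESeq2 and 65 without day 3. Low counts limit Tex101 and Asz1, and each comparison by line rests on 1 or 2 lines.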
